A study of Drosophila melanogaster with 8 samples.

Results

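The ecdysteroid synthesis genes of Drosophila melanogaster are nvd, spok, sro, phm, dib, sad and shd, and they were taken from the files by these symbols. The files listed all 7 among 15296 gene models. They encode the enzymes that turn dietary sterol into the moulting hormone, and most carry Halloween names because embryos that lack them make no proper cuticle. In larvae the early and middle steps take place in the prothoracic gland, a small endocrine tissue of the ring gland, which releases ecdysone into the blood. Peripheral tissues then convert ecdysone to its active form, which binds the EcR and usp receptor and sets off moulting and metamorphosis, and adult ovaries also make the hormone.

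RNA from whole animals labelled female was sequenced in 4 groups of 2 libraries each. The groups were A4 adults aged 2 to 3 days, A12 adults of the same age, A4 larvae and A12 larvae, the larvae being of the third instar, all raised at 18 °C. A4 animals are homozygous for In(2)A4, a rearrangement of chromosome 2 that the series presents as a cause of position effect variegation, the mosaic silencing of genes brought close to heterochromatin. A12 animals, labelled A12/A12, take the place of the wild type in that comparison. The A4 larvae were picked as homozygotes without fluorescence from a stock balanced over CyO-GFP, while no such step is recorded for A12. Stage within the third instar is not recorded either, so for every larval difference below, genotype and progress through the instar cannot be told apart. None of the members lies on chromosome 2.

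Levels are given as FPKM, fragments scaled to gene length and library size. This scaling does not correct for differences in RNA composition, so folds and sums between libraries depend on it. The median log2(FPKM + 1) of tested genes ran over 2.91 to 3.54 in larval libraries and 3.84 to 4.05 in adult libraries. Changes are on the log2(FPKM + 1) scale, given with their standard error, and this scale understates changes of genes near 0. They were tested with limma across the 9655 genes that averaged 1 FPKM or more, and a difference was called at an adjusted p under 0.05. Nothing in the labels ties replicates to separate cultures or animals, so these p-values measure only the spread between libraries, which may be technical. The fit shares its estimate of spread over all groups. For any gene at or near 0 in some groups, standard errors and p-values can therefore be too small. Over all tested genes the median change was -0.43 between A4 and A12 larvae and -0.048 between A4 and A12 adults. One larval library, A4 larvae replicate 2, stood apart by testis genes. In it 11 of 14 testis genes reached 1 FPKM, against 1 to 3 in the other 7 libraries, and the male RNAs roX1 and roX2 summed to 47.3 FPKM, against 0.0913 to 7.69. These values go against the female label of that library. Results without that library are given where they differ.

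Of the 7 members, 5 reached the mean of 1 FPKM and were tested: spok, sro, phm, sad and shd. The other members stayed below it, nvd with a mean of 0.537 FPKM over the 8 libraries and dib with 0. A12 larvae alone carried spok over the limit, since its mean over the other 6 libraries was 0.465 FPKM. A difference of spok from A12 larvae was thus partly built into its selection, and counts of tested members are given as a description.

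**Figure D1:**
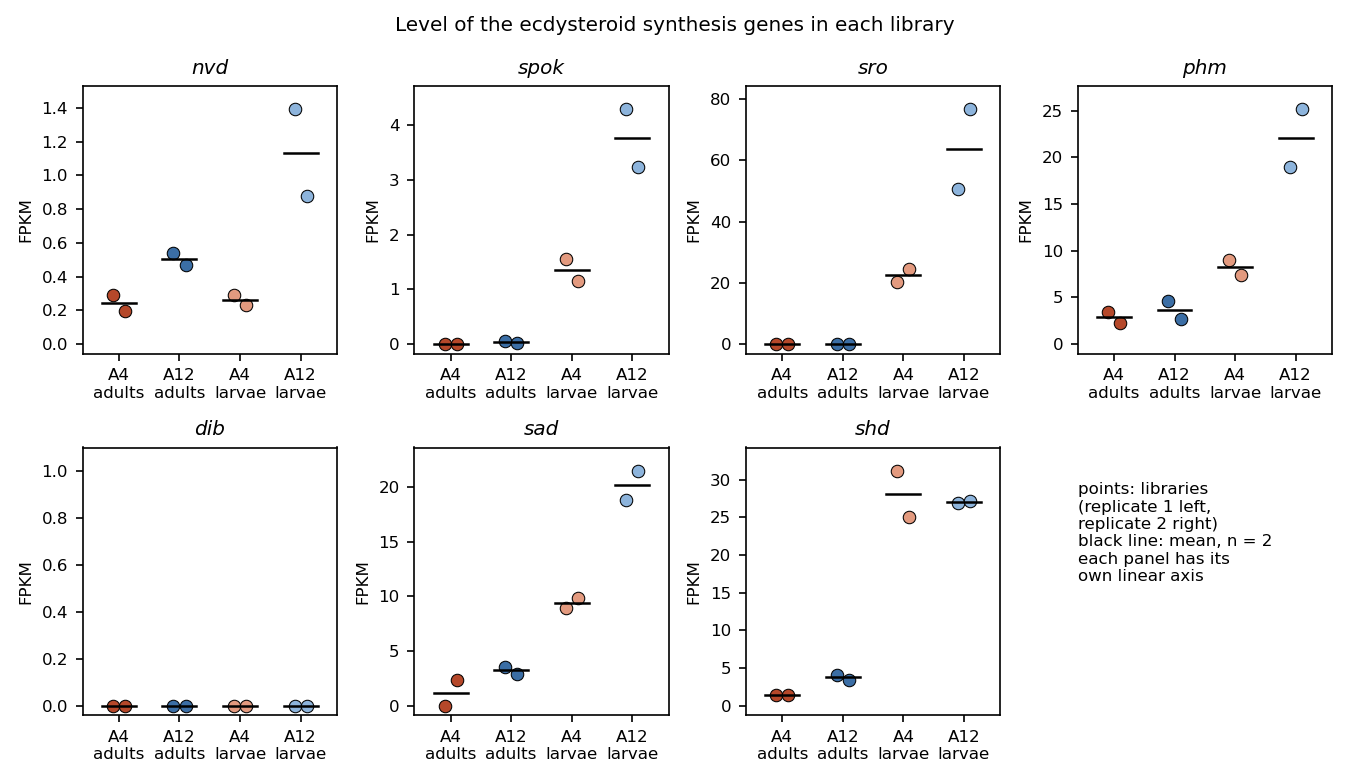
FPKM of each member in each of the 8 libraries (points; black line, mean of n = 2), on a linear axis of its own in each panel, with the groups in the order A4 adults, A12 adults, A4 larvae and A12 larvae. For nvd, spok, sro, phm and sad both A12 larval points lie above both A4 larval points, the larval groups of shd overlap, and dib is at 0 throughout.

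In A4 larvae 3 enzymes of the early and middle steps, spok, sro and phm, stood 2.68-fold to 2.83-fold lower than in A12 larvae, and the values of nvd and sad were also below those of A12 larvae. The last enzyme, shd, differed by less than the spread between its A4 libraries. In limma 3 of the 5 tested members fell and none rose, beside 26.0% of all tested genes that fell and 8.77% that rose. For 5 of the 7 members, nvd, spok, sro, phm and sad, both A4 larval libraries lay below both A12 larval libraries, a pattern found in 56.6% of all tested genes. Because whole animals were sampled, fewer gland cells and less RNA per gland cell cannot be told apart in any of these differences.

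The first step is made by nvd (3L 24317967 to 24394755, build dm3), an oxygenase of the Rieske type that acts on cholesterol. It stood at 0.293 and 0.232 FPKM in A4 larvae, against 1.39 and 0.881 FPKM in A12 larvae. The groups did not overlap, and the A4 mean was 4.33-fold lower, the widest gap among the members. As nvd was below the limit for testing, its change was read from fits with other limits. With no limit it was -0.75 (adjusted p = 0.0148), where 16.4% of all genes were called lower, and with a limit and a pseudocount of 0.1 FPKM it was -1.74 (adjusted p = 0.0229), where 20.2% of all genes were called lower.

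The steps that follow are known as the Black Box because their intermediates have long resisted isolation. One of its enzymes is spok (3RHet 2127184 to 2158789), a cytochrome P450 of the larval gland whose close relative spo serves the embryo and the ovary. In A4 larvae spok had 1.56 and 1.15 FPKM, against 4.29 and 3.24 FPKM in A12 larvae. Both A4 libraries were below both A12 libraries, with a mean 2.77-fold lower. The log2 change was -1.01 ± 0.24 (adjusted p = 0.0183), and with a pseudocount of 0.1 the call was lost (-1.41, adjusted p = 0.0663). Adult values of spok, at or near 0, add little spread to the fit, so this standard error and p-value can be too small.

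The other Black Box enzyme measured, sro (3R 25620358 to 25621420), is a short-chain dehydrogenase. It had 20.4 and 24.6 FPKM in A4 larvae, against 50.6 and 76.6 FPKM in A12 larvae. Each A12 library exceeded each A4 library by a wide margin, and the A4 mean was 2.83-fold lower. With a log2 change of -1.43 ± 0.24 (adjusted p = 0.00466), sro was the member with the largest tested difference between the larval groups. The fit shares its estimate of spread over all groups, and sro is listed at 0 in every adult library. These zeros add no spread, so its standard error and p-value can understate the spread between larval libraries.

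The terminal hydroxylations are carried out by the P450 enzymes phm, dib and sad, of which sad produces ecdysone itself. Levels of phm (X 18579802 to 18582257) were 9.002 and 7.43 FPKM in A4 larvae, against 18.9 and 25.1 FPKM in A12 larvae. The groups were apart, and phm fell by 1.31 ± 0.28 on the log2 scale (adjusted p = 0.0123). That call was lost without A4 larvae replicate 1 (adjusted p = 0.0505), without A4 larvae replicate 2, the library with testis genes (adjusted p = 0.0684), and without A12 larvae replicate 2 (adjusted p = 0.0541).

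For sad (3R 7702957 to 7705476) the levels were 8.93 and 9.83 FPKM in A4 larvae, against 18.8 and 21.5 FPKM in A12 larvae. The 2 genotypes were apart here too, with a mean 2.15-fold lower in A4 larvae. Its log2 change of -1.02 ± 0.50 did not pass in limma (adjusted p = 0.141). The A4 adult libraries, with sad at 0 and 2.38 FPKM, lie far apart and widen the spread that the fit shares over all groups. Without either of them the larval change passed. Such fits leave the size of the larval change as it was and narrow only the shared spread, so they add nothing about larvae.

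The mitochondrial enzyme dib (3L 4062292 to 4064551), which acts between phm and sad, was listed at 0 in all 8 libraries. The upper confidence bounds deposited with these values ran over 0.0391 to 0.0738 FPKM. Of 15094 gene models with a valid status in every library, 1442 were likewise listed at 0 throughout. The dib model shares 400 bases with wit, a receptor gene on the other strand in the reference annotation, which stood at 3.27 to 8.47 FPKM. Whether that overlap bears on the zeros was not tested, and no statement about dib RNA is drawn from them.

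The last step, from ecdysone to 20-hydroxyecdysone, is made by shd (3L 14607558 to 14615305) in the fat body, gut and Malpighian tubules. It had 31.2 and 25.1 FPKM in A4 larvae, against 26.9 and 27.1 FPKM in A12 larvae. The A12 libraries lay between the A4 libraries, and the log2 change was 0.047 ± 0.18 (adjusted p = 0.867). A missed threshold does not show equal levels. Without A4 larvae replicate 1 the change was -0.10, and after centring each library on its median it was 0.51 (adjusted p = 0.0838).

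**Figure D2:**
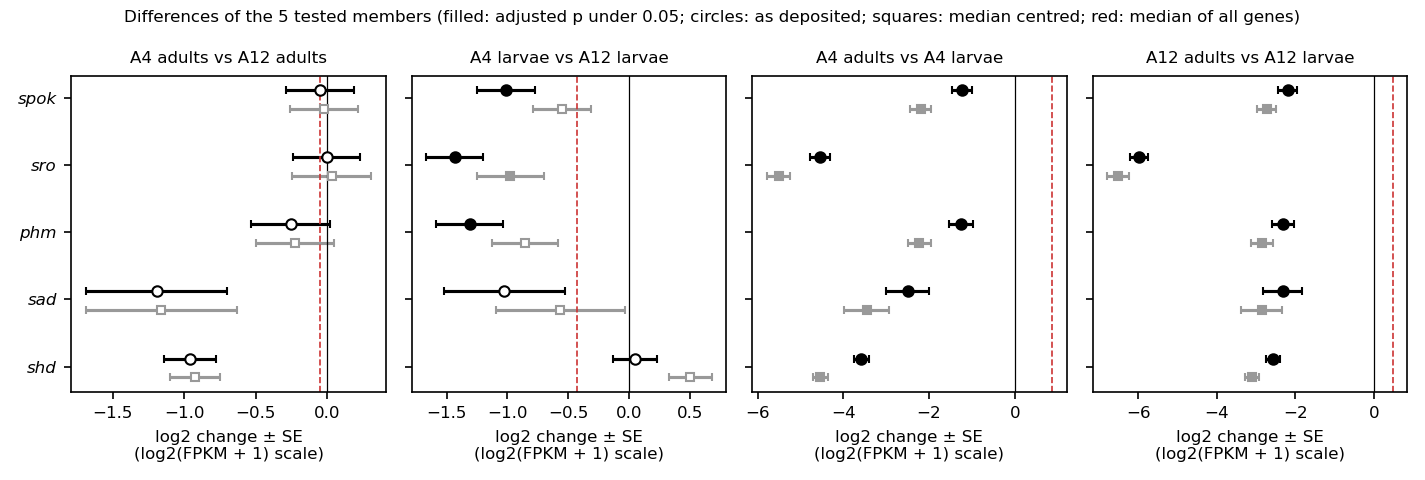
Log2 change ± SE of the 5 tested members in the 4 comparisons, each as A4 over A12 or adults over larvae, from values as deposited (circles) and after median centring (squares), with filled symbols for an adjusted p under 0.05 and a red dashed line at the median of all genes. In larvae sro, phm and spok are filled as deposited and sro alone is filled after centring, in adults no symbol is filled, and in both stage comparisons every symbol is filled and below 0.

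How many members were called in larvae depended on the scale. Relative to the median of all genes, which was -0.43, the shifts of spok, sro and phm were smaller. After median centring 1 member, sro, fell (-0.98, adjusted p = 0.0461), beside 10.2% of all genes that fell and 13.7% that rose. The centred changes of phm and spok were -0.85 (adjusted p = 0.0657) and -0.55 (adjusted p = 0.143). After quantile normalization sro (-0.97, adjusted p = 0.0259) and spok (-0.90, adjusted p = 0.0335) fell, beside 12.3% of all genes. In a fit of the 4 larval libraries alone none of the members passed, with adjusted p-values of 0.0544 to 0.0607 for sad, phm, sro and spok.

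Levels also ordered the members differently in the larval groups. In A4 larvae shd was highest, followed by sro, then sad and phm, whose libraries overlapped, then spok and nvd. In A12 larvae sro was highest and shd next, followed by phm and sad, which again overlapped, then spok and nvd. The 7 members summed to 71.4 and 68.4 FPKM in A4 larvae, against 121.0 and 154.5 FPKM in A12 larvae. Without shd the sums were 40.2 and 43.2 FPKM in A4 larvae, against 94.1 and 127.3 FPKM in A12 larvae.

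In adults every member stood below 5 FPKM, and none differed by the test. The largest log2 changes of tested members were those of sad and shd, both with lower values in A4 adults. Of the 5 tested members 0 were called by limma, beside 0.746% of all tested genes. An unadjusted p under 0.05 with lower values in A4 adults was found for 2, sad and shd. The same held for 664 of all 9655 tested genes.

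The final enzyme shd had 1.43 and 1.43 FPKM in A4 adults, against 4.04 and 3.43 FPKM in A12 adults. Its genotypes did not overlap, as was found in this direction for 26.3% of all tested genes, and the mean was 2.61-fold lower in A4 adults. The log2 change was -0.96 ± 0.18, with an unadjusted p of 0.00103 and an adjusted p of 0.0957.

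In adults sad was listed at 0 and stood at 2.38 FPKM in the A4 libraries, against 3.55 and 2.89 FPKM in A12 adults. Much of its log2 change of -1.19 ± 0.50 (adjusted p = 0.465) came from the library at 0, for which the deposited upper bound was 0.136 FPKM. Without that library the change was -0.32. Without the other A4 adult library it was -2.07, which rests on the library at 0 alone.

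Adult phm overlapped between genotypes, at 3.45 and 2.30 FPKM in A4 adults, against 4.59 and 2.74 FPKM in A12 adults. The log2 change was -0.25 ± 0.28 (adjusted p = 0.809), and without A12 adults replicate 1 it was 0.036. For nvd, below the limit for testing, the values were 0.289 and 0.197 FPKM in A4 adults, against 0.539 and 0.470 FPKM in A12 adults. Its libraries did not overlap, but with no limit the change did not pass (-0.28, adjusted p = 0.66).

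For the Black Box genes most adult values were exact zeros. All 4 adult libraries listed sro at 0. For spok both A4 adult libraries were listed at 0, against 0.058 and 0.0148 FPKM in A12 adults, and no fold is given between them. These zeros of sro and spok carried a valid status. A listed 0 need not mean that RNA was absent, and whether it was absent here was not tested. The gene usp, which encodes part of the hormone's receptor, was listed at 0 in both A4 larval libraries, against 18.3 and 0 FPKM in A12 larvae. It did not have a valid status throughout and was left out of the tests, so its zeros do not bear on those of sro and spok. The relative of spok, spo (3L), was listed at 0 in both A4 adult libraries, against 2.45 and 1.44 FPKM in A12 adults. It was also at 0 in all larval libraries. Since spo fell below the limit it was read from the fit with none, where it fell by 1.54 ± 0.16 in A4 adults (adjusted p = 0.0182), as did 0.315% of all genes. Its zeros in A4 adults and both larval groups add no spread, so this standard error and p-value can be too small. Its model overlaps that of l(3)psg2 by 308 bases, and the part of that overlap in its zeros was not tested.

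Between stages, every tested member was lower in adults than in larvae of the same genotype. In A4 animals 5 of 5 fell, beside 13.9% of all tested genes that were lower in adults and 55.8% that were higher. In A12 animals 5 of 5 fell as well, beside 17.6% lower and 41.1% higher. Since spok and sro passed the limit through their larval values, this count was partly fixed by the selection. After median centring the share of all genes lower in adults was 30.0% in A4 and 29.2% in A12, and the 5 members remained lower in both.

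On the log2(FPKM + 1) scale the widest stage difference was that of sro, with changes of -4.55 in A4 (adjusted p = 6.02e-06) and -5.98 in A12 (adjusted p = 1.62e-06). The adult zeros of sro add no spread to the fit, so these p-values can be too small. On that scale shd in A4 animals stood at 1.43 FPKM in A4 adults against 28.1 ± 4.28 FPKM in A4 larvae (SD, n = 2), a change of -3.58 (adjusted p = 5.59e-06). In A12 animals shd averaged 3.74 ± 0.425 FPKM in adults against 27.0 ± 0.148 FPKM in larvae, a change of -2.57 (adjusted p = 2.41e-05). The mean was thus 19.7-fold lower in A4 adults and 7.24-fold lower in A12 adults than in larvae of their genotype.

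For phm the adult mean was 2.86-fold below the larval mean in A4 (log2 change -1.26, adjusted p = 0.00497) and 6.01-fold below it in A12 (-2.32, adjusted p = 0.000313). The changes of sad were -2.50 in A4 (adjusted p = 0.00322) and -2.33 in A12 (adjusted p = 0.00539). With a pseudocount of 0.1 the A12 change of sad no longer passed (adjusted p = 0.122). For spok they were -1.23 in A4 (adjusted p = 0.00284) and -2.19 in A12 (adjusted p = 0.000202). Its adult values at or near 0 add little spread, so these p-values can be too small. As a ratio of means the A12 difference of spok was wider than those of phm, sad and shd, 103.5-fold lower in A12 adults, although it rests on adult values of 0.058 and 0.0148 FPKM. In contrast, nvd overlapped between A4 adults and A4 larvae, and its A12 adult mean was 2.25-fold below that of A12 larvae without overlap, as in 24.0% of all tested genes. These 2 stage comparisons share libraries with the genotype comparisons above.

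Whether the genotype difference itself differed between stages was tested as an interaction, the A4 minus A12 difference in adults minus that in larvae. Of all tested genes 17.6% passed, 10.9% with a positive and 6.75% with a negative interaction. It passed for shd (-1.01 ± 0.26, adjusted p = 0.0385), whose values were apart in adults and overlapped in larvae, and for sro (1.43 ± 0.33, adjusted p = 0.0288). As sro is listed at 0 in every adult library, its interaction restates the larval difference, with a standard error to which those zeros add no spread. Leaving out any 1 of the 8 libraries ended the call of shd (adjusted p = 0.0557 to 0.121), and leaving out any 1 but either of the A12 larval libraries ended that of sro (adjusted p = 0.0236 to 0.0977 over all 8). After median centring shd passed (-1.43, adjusted p = 0.0126) and sro did not (1.01, adjusted p = 0.133), where 15.6% of all genes passed. It did not pass for spok (0.96, adjusted p = 0.0891), phm (1.06, adjusted p = 0.0997) or sad (-0.17, adjusted p = 0.883).

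The deposited FPKM and its own confidence bounds disagreed for 4 members. FPKM lay outside the bounds in 5 of 8 libraries for nvd, 4 for spok, 3 for sro and 5 for phm, and in none for sad, shd and dib. Over all genes of at least 1 FPKM this held for 18.6% to 25.4% of genes per library. In larvae the values of nvd and spok lay near or below the lower bound, and those of sro and phm mostly above the upper bound. With the midpoint of the bounds in place of FPKM, an alternative added after the data were seen, the larval ratios were 4.04 for nvd, 2.47 for sro, 2.45 for spok, 2.31 for sad and 2.05 for phm, each as fold lower in A4. The same members fell, sro by 1.24 (adjusted p = 0.00313), spok by 1.12 (adjusted p = 0.00718) and phm by 0.96 (adjusted p = 0.0396), beside 24.9% of all genes. The order within a library did shift, since sad then lay above phm without overlap in both larval groups.

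**Figure D3:**
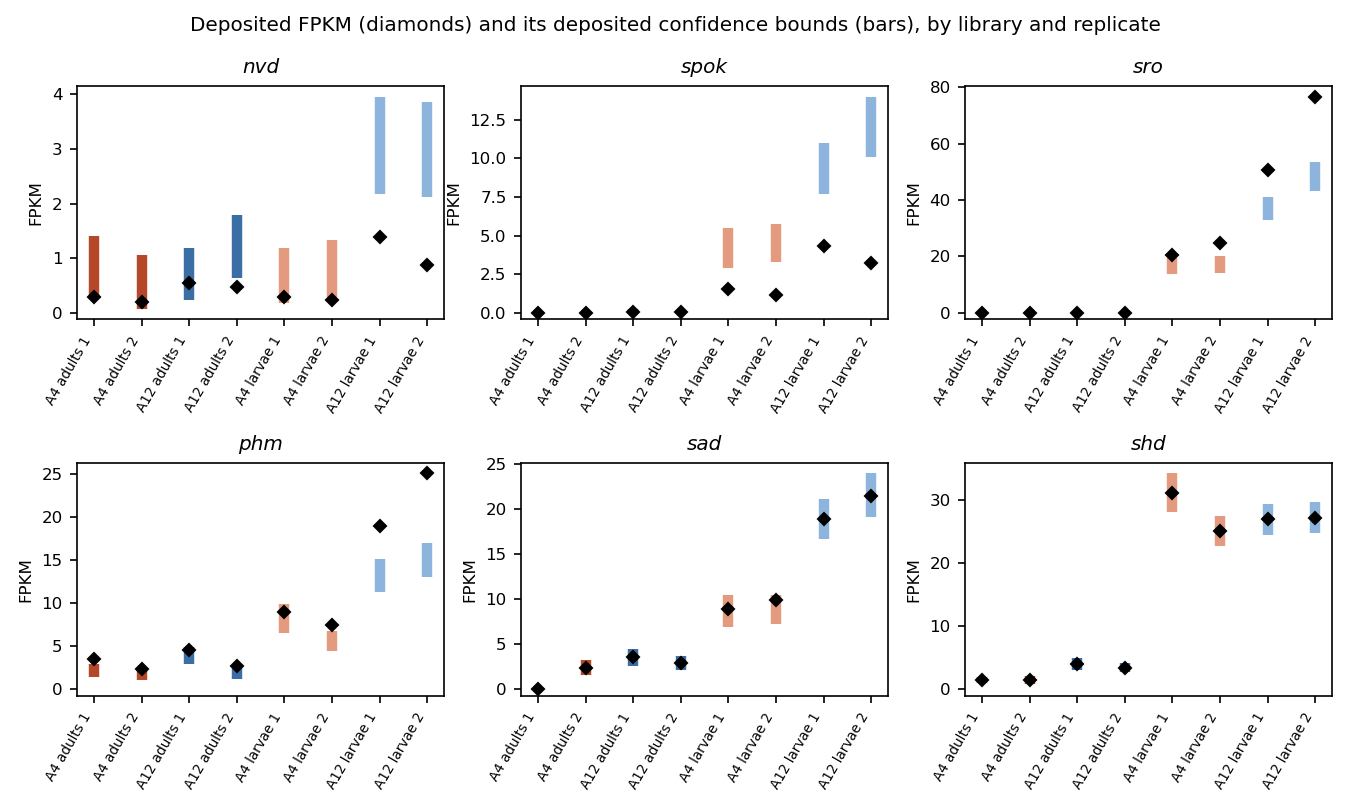
Deposited FPKM (black diamonds) and the deposited confidence bounds (coloured bars) of 6 members in each library, on linear axes in FPKM, with dib left out because it is at 0. Diamonds lie under the bars for spok in all 4 larval libraries and over them for sro in 3, while those of sad and shd lie inside.

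The authors' deposited table of log2 ratios of A4 to A12 covers 9120 genes and held 4 of the 7 members. For larvae the authors' deposited table gives -2.11 for nvd, -1.50 for sro, -1.42 for phm and 0.06 for shd. For adults the authors' deposited table gives -1.05 for nvd, -0.35 for phm and -1.39 for shd. It also gives 0.29 for sro in adults, where all 4 libraries list the gene at 0, so how that ratio arose is not given in the sources used here.

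Other genes of the hormone's pathway were grouped into 7 lists by function. In larvae 8 genes of the lists rose and 37 fell in A4, beside the 8.77% and 26.0% of all tested genes given above. Some genes are in more than 1 list and are counted once in these totals. Among genes of sterol supply and electron transfer, 3 of 16 rose and 4 fell, with a median log2 change of -0.18, set against -0.43 over all tested genes here and for the lists that follow. After median centring, and likewise after quantile normalization, 4 of the 16 rose and 2 fell. The sterol transporter gene Npc1a, needed to move cholesterol in the gland, fell by 0.98 (adjusted p = 0.0101). So did Start1, a relative of a mammalian steroid carrier, to 9.99 ± 1.09 FPKM in A4 larvae, against 27.9 ± 5.75 in A12 larvae (-1.38, adjusted p = 0.00258). Npc2a fell by 1.81 (adjusted p = 0.00276), while Npc2d rose by 1.49 (adjusted p = 0.00374).

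Of 4 other tested genes listed with the ecdysteroid enzymes, 1 rose and none fell in larvae, with a median of 0.37. The gene that rose was the cytochrome P450 gene Cyp12c1 (2.64, adjusted p = 0.00129). Whether its product acts on ecdysteroids was not tested. Cyp18a1, whose product inactivates the hormone, had 3.72 ± 0.405 FPKM in A4 larvae and 1.87 ± 0.428 in A12 larvae (0.73, adjusted p = 0.0555). It passed after median centring and after quantile normalization, each of which gave 2 genes of this list that rose. Eo, the ecdysone oxidase gene, differed by 0.012 in larvae (adjusted p = 0.984) and had 0.732 ± 0.00833 FPKM in A4 adults against 2.13 ± 0.27 in A12 adults (-0.85, adjusted p = 0.181).

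Of 8 genes for hormone release and import, 0 rose and 3 fell, with a median of -0.45. Atet, which loads ecdysone into secretory vesicles of the gland, fell to 8.20 ± 0.766 FPKM in A4 larvae, against 39.02 ± 12.2 in A12 larvae (-2.09, adjusted p = 0.0011). Vmat (-1.23, adjusted p = 0.011) and Syt1 (-0.89, adjusted p = 0.024) fell too. After median centring 1 of the 8 rose and 2 fell. Oatp74D, the importer that brings ecdysone into target cells, did not pass (0.26, adjusted p = 0.474).

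Genes listed as inputs to the gland, not all of them activating, include the receptor gene tor and genes of insulin and growth factor pathways. Of 14 such genes 0 rose and 6 fell, with a median of -0.70, among them Egfr (-0.97, adjusted p = 0.00672), Pvr (-0.82, adjusted p = 0.011) and Ras85D (-1.05, adjusted p = 0.0192). After median centring none of the 14 passed. The receptor gene tor itself was listed at 0 in both A4 larval libraries, against 0.345 ± 0.00203 FPKM in A12 larvae, and did not pass (adjusted p = 0.0949).

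Among 11 tested genes listed as transcription factors and other regulators of the gland, 0 rose and 4 fell, with a median of -0.84. They were ecd (-1.30, adjusted p = 0.00264), required for ecdysone production, Hr4 (-2.29, adjusted p = 0.00523), Hr39 (-1.61, adjusted p = 0.00789) and br (-1.79, adjusted p = 0.0183). Of these Hr4, Hr39 and br are counted again among the receptor and early response genes below. After median centring 1 of the 11 rose and 3 fell. The zinc finger gene mld, needed for nvd and spok expression, had 1.73 ± 0.237 FPKM in A4 larvae and 3.01 ± 0.738 in A12 larvae and did not pass (-0.55, adjusted p = 0.107).

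Downstream of the hormone, 1 of 21 receptor and early response genes rose and 13 fell, with a median of -1.45. The steepest was Eip78C at 0.417 ± 0.099 FPKM in A4 larvae, against 26.1 ± 18.1 in A12 larvae (-4.07, adjusted p = 0.000776), followed by ImpE3 (-3.70, adjusted p = 6.26e-05) and ImpE2 (-3.42, adjusted p = 0.00028). After median centring 3 of the 21 rose and 10 fell.

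Staging genes of the third instar differed as well. Of 15 tested, 3 rose and 10 fell, and 3 rose and 6 fell after median centring, 3 and 7 after quantile normalization. The 3 that rose were the early salivary gland genes ng1, ng2 and ng3, with ng1 at 176.2 ± 11.3 FPKM in A4 larvae, against 6.90 ± 3.53 in A12 larvae (4.56, adjusted p = 0.000118). Late genes fell, with Eig71Ea at 0.397 ± 0.102 FPKM in A4 larvae, against 63.4 ± 8.76 in A12 larvae (-5.52, adjusted p = 1.39e-05), and with glue genes such as Sgs5 lower (-1.78, adjusted p = 0.000558). The 20 staging genes summed to 17038 and 17681 FPKM in A4 larvae, against 28276 and 40897 FPKM in A12 larvae. Their part in the differences of the synthesis genes was not tested.

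Markers of tissues differed between the larval groups too. For the prothoracic gland the 3 marker genes mld, ouib and tor summed to 2.21 and 2.06 FPKM in A4 larvae, against 4.26 and 3.41 FPKM in A12 larvae. Those sums did not overlap, a pattern that 56.6% of all tested genes showed singly, and neither of the 2 genes tested, mld and tor, passed. Most of each sum was mld, at 1.89 and 1.56 FPKM in A4 larvae, against 3.53 and 2.48 FPKM in A12 larvae. The values of ouib overlapped, at 0.320 and 0.499 FPKM in A4 larvae, against 0.385 and 0.579 FPKM in A12 larvae. In adults the 3 genes summed to 33.6 and 37.4 FPKM in A4, and 26.9 and 23.9 FPKM in A12. There mld and tor stood higher than in larvae, and ouib lower. The larval sums therefore cannot be read as an amount of gland. Among tissues that use shd, 5 of 7 midgut genes rose in A4 larvae, beside 8.77% of all tested genes. Of 7 fat body genes and of 4 Malpighian tubule genes, 1 rose and 2 fell in each, beside 26.0% of all genes that fell. After median centring no fat body or tubule gene fell, with 1 fat body and 2 tubule genes that rose. Midgut genes summed to 11366 and 23648 FPKM in A4 larvae, against 4795 and 10512 FPKM in A12 larvae. Tubule genes summed to 79.9 and 79.3 FPKM in A4 larvae, against 48.0 and 45.7 FPKM in A12 larvae. Uro alone made up that gap, at 52.1 and 53.8 FPKM in A4 larvae, against 1.31 and 3.12 FPKM in A12 larvae, and without it the sums were 27.8 and 25.5 FPKM in A4 larvae, against 46.7 and 42.6 FPKM in A12 larvae. The part of these tissue genes in the values of the members was not tested.

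In adults 0 of the 85 pathway genes tested passed in limma. An unadjusted p under 0.05 was found for 7 that were higher and 6 that were lower in A4. Over all 9655 tested genes it was found for 354 that were higher and 664 that were lower. The smallest adjusted p-values were those of Cyp12c1 (1.76, adjusted p = 0.0858) and Npc2f (-1.38, adjusted p = 0.0876). Of 8 germline and 11 follicle cell genes of the ovary 0 passed in adults. An unadjusted p under 0.05 was found for 1 germline gene that was lower and 5 follicle cell genes that were higher in A4. The same 664 lower and 354 higher genes of all 9655 tested stand beside these counts. Follicle cell genes summed to 12589 and 4541 FPKM in A4 adults, against 5461 and 8768 FPKM in A12 adults, so these sums overlapped. Genes of high level weigh most in them, such as Cp15 at 2808 ± 2449 FPKM in A4 adults and 4289 ± 2753 in A12 adults. The median log2 change was 0.56 for follicle cell genes and -0.12 for germline genes, set against -0.048 over all tested genes.

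**Figure D4:**
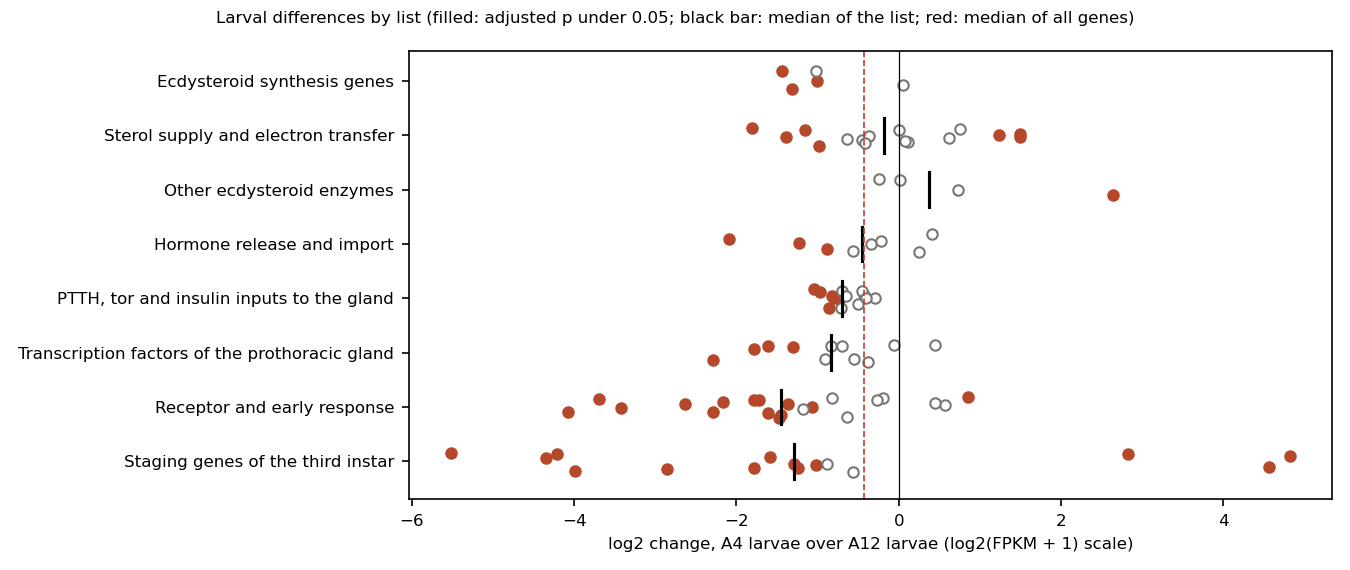
Larval log2 change, A4 over A12, of the 5 tested synthesis genes and the genes of 7 pathway lists (points; filled for an adjusted p under 0.05), with each pathway list's median (black bar) and the median of all genes, -0.43 (red dashed line). The receptor and early response genes and the staging genes spread widest, from Eig71Ea at -5.52 to ng1 and ng2 on the right.

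Genes next to the members were read as well. Of up to 3 listed genes on either side of each member, 40 in all, 28 were tested. Of these 2 rose and 5 fell in A4 larvae, beside 8.77% and 26.0% of all tested genes. In A4 adults 0 passed, beside 0.746%. There 3 had an unadjusted p under 0.05, all lower, beside 664 lower genes of all 9655 tested. The members nvd and spok lie in or near the heterochromatin of chromosome 3, and none of their 7 tested neighbours was called in larvae or adults, with Alg-2 and Parp beside spok at adjusted p = 0.0517 and 0.0542 in larvae. In larvae the 3 tested neighbours of nvd ran over log2 changes of -1.24 to 0.014 and the 4 of spok over -0.85 to -0.014. In adults they ran over -1.12 to -0.59 beside nvd and -0.51 to -0.42 beside spok, all lower in A4. The adult median over all tested genes was -0.048. Cyp18a1, which lies 313 bases from phm, had the opposite sign in larvae, as given above. The models of sad and CG6962 share 53 bases, and those of sro and CG7837 share 2 bases. Whether counting used strand is not stated, so reads in such overlaps cannot be assigned.

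The genes whose profile over the 8 libraries was most like that of a member were found from the root mean square difference between centred log2(FPKM + 1) profiles, as a description with no test. Nearest to spok was cher, which encodes a filamin (0.0936), although cher stood at 336.4 and 444.7 FPKM in A12 larvae. For sro the nearest was Tsp42Ep (0.291), for phm CG12655 (0.169) and for shd CG8661 (0.245). The profile nearest to sad was that of CG5493 (0.428), which like sad was listed at 0 in A4 adults replicate 1.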

How the data were processed

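Reads were aligned to build dm3 and FPKM values with confidence bounds and a status were made by the authors with Cufflinks, per the file headers and the submitters' processing notes, which also name Bowtie, Bowtie2 and TopHat 0.6 without order or options. Per the labels' protocols, libraries followed TruSeq after Ribo-Zero depletion. A table of log2 ratios was also deposited. Read counts are not given, so depth is unknown and no counting interval is printed.

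Gene models with status OK in all 8 libraries and a mean of at least 1 FPKM were tested, 9655 of 15296, 202 lacking that status. Log2(FPKM + 1) was fitted with limma 3.58.1 in R 4.3.3, in 1 fit of the 4 groups with a trend, with two-sided p-values and a Benjamini-Hochberg threshold of 0.05 over all tested genes. The fit was tested on simulated data. Members and lists were chosen with earlier results of these data known. Named genes were the members, up to 3 genes per list with the smallest p in each genotype comparison and others that a sentence counts, 3 neighbours on each side, and the nearest profiles. spo, Npc1a, tor, mld, Oatp74D, Eo and Cyp18a1 were also named for their role. Of 123 list names, 118 matched the files, some by synonym. The reference annotation, of another assembly, served only for names and the strand of wit. Alternatives were pseudocounts of 0.1 and 5, other limits, median centring, quantile normalization, no trend, only the compared groups, a replicate block, each library left out and, added later, bound midpoints. Figures and tables used Python 3.11.15, pandas 2.3.3, numpy 2.4.6 and matplotlib 3.10.9.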

Additional observations from a re-analysis of the deposited data

Results flagged for a closer look

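The genotype difference itself differed between stages for 2 members by the interaction test in limma, beside 17.6% of all tested genes. For shd the A4 minus A12 difference in adults minus that in larvae was -1.01 on the log2(FPKM + 1) scale. Values were 1.43 and 1.43 FPKM in A4 adults against 4.04 and 3.43 in A12 adults, and 31.2 and 25.1 FPKM in A4 larvae against 26.9 and 27.1 in A12 larvae. For sro it was 1.43, which restates its larval difference because all adult libraries list it at 0. Neither call was stable. That of shd was lost with a pseudocount of 5 and with no limit, and that of sro after median centring. Fits with a library left out are described above.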

How the results depend on the processing

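In larvae the number of members that fell, 3 as reported, was 1 after median centring, 0 with only the larval libraries, 1 with bound midpoints and centring, and 2 to 4 when 1 library was left out. In adults it was 0, and 0 to 1 with 1 library left out. For the interaction the number of positive calls, 1 as reported, was 0 with a pseudocount of 0.1, with a limit and pseudocount of 0.1, after centring, after quantile normalization and with centred midpoints, 2 with no limit and 0 to 2 with 1 library left out. Its number of negative calls, 1 as reported, was 0 with a pseudocount of 5, with no limit and with any 1 library left out. The sign turned for shd in larvae (-0.10 to 0.20 with 1 library left out, the lowest without A4 larvae replicate 1), for phm in adults (-0.54 to 0.036, the highest without A12 adults replicate 1) and for the interaction of sad (0.37 with a pseudocount of 5, and -1.05 to 0.71 with 1 library left out, the highest without A4 adults replicate 1). Of pathway genes in larvae, 8 rose and 37 fell as reported. After centring 13 rose and 21 fell, with centred midpoints 13 rose, after quantile normalization 24 fell, with only the larval libraries 17 fell, and with 1 library left out 5 to 9 rose and 24 to 36 fell. In adults 1 fell, spo, with no limit and with a limit of 0.1. Over all genes, 847 rose and 2512 fell in larvae as reported, 1322 and 982 after centring, 1122 and 1184 after quantile normalization, and 424 and 622 with only the larval libraries. Without A12 larvae replicate 1 they were 518 and 871, and 1000 and 1431 fell without A4 larvae replicates 1 and 2. In adults 21 rose and 51 fell, against 10 and 32 with a limit of 5 FPKM and 6 and 15 with only the adult libraries. Without A12 adults replicate 1, 34 rose, and without A4 adults replicate 2, 32 fell. The cause of these shifts was not tested, apart from the fewer samples or genes in some fits. Replicate numbers did not pair the libraries, with correlations of their deviations of -0.0540 to 0.0854, and with the replicate block 3 members fell in larvae. Depth is unknown, and 2 libraries a group limit every test.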
